A study of Mus musculus with 5 samples.

Results

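The keratin genes of basal and stressed squamous epithelium were followed in AOM/DSS-induced colon tumors. The set held 9 genes of the 52143 in the table, chosen by symbol with their levels in these samples already known: *Krt5*, *Krt14* and *Krt15* of the basal layer, *Krt6a*, *Krt6b*, *Krt16* and *Krt17* of stressed epithelium, and *Trp63* and *Sfn*, which are active in the same cells. Each symbol matched 1 gene, and all 9 passed the filter on low values (TPM of at least 1 in at least 2 samples), as did 10338 genes in all. Because the choice rested on these values, the levels are described and no p-value is given for a member.

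RNA-Seq had been performed on colon tumors collected on day 87 from 2 Control mice (replicates 1 and 4) and 3 SIGLEC12 mice (replicates 2, 3 and 4), and the question was how Siglec-XII in the epithelium changes the transcriptome. Control mice carried Villin1-Cre-ERT, a Cre recombinase that tamoxifen activates and that the promoter of villin, a gene of intestinal epithelium, drives in villi and crypts. SIGLEC12 mice carried the same recombinase and, in addition, a knock-in of the human gene *SIGLEC12* behind a loxP-flanked *egfp* stop cassette. Both groups had received tamoxifen for 5 days, AOM, a carcinogen, at 10 mg/kg, and cycles of DSS, which injures the colon lining, at 2.0% for 5 days with 14 days of recovery. The mice were adult females, and the Control group had 1 more animal that is not analysed here. Each sample is RNA from bulk tumor tissue of 1 mouse. The study's methods describe 3 technical libraries per sample, and how these relate to the single columns used here is not stated there.

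Keratins are the intermediate filament proteins of epithelium and assemble from 1 type I and 1 type II partner. In stratified squamous epithelium such as skin, esophagus and anal canal, *Krt5* (type II) pairs with *Krt14* (type I) in the basal layer. The stress keratins *Krt6a* and *Krt6b* (type II) pair with *Krt16* and *Krt17* (type I) and are switched on in wounded or hyperproliferative epithelium. The columnar lining of the colon instead uses simple keratins such as *Krt8*, *Krt18*, *Krt19* and *Krt20*.

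On GRCm38 the 3 type II genes lie side by side on chromosome 15, with *Krt5* at chr15:101707070-101712898, *Krt6a* at chr15:101689910-101694307 and *Krt6b* at chr15:101676023-101680287. The 4 type I genes lie on chromosome 11, with *Krt14* at chr11:100203162-100207548, *Krt15* at chr11:100131758-100135928, *Krt16* at chr11:100246091-100248902 and *Krt17* at chr11:100256217-100261029. All 7 keratin genes are on the minus strand. *Trp63* lies at chr16:25683763-25892102 on the plus strand and *Sfn* at chr4:133600556-133602168 on the minus strand.

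The pair *Krt6a* and *Krt6b* is nearly identical over the coding bases. Their coding sequences matched at 1622 of 1659 aligned bases (97.77%), and the longest run without a difference covered 280 bases of exon 1. The 90 coding bases that differ most lie in exon 4 and hold 12 of the 37 differences. They are shown because reads over them can separate the pair. Sequences are from GRCm38 with GENCODE M21 exons, read 5′ to 3′ along the minus strand at chr15:101692484-101692573 (*Krt6a*) and chr15:101678303-101678392 (*Krt6b*), and capitals mark the bases that differ.
Krt6a: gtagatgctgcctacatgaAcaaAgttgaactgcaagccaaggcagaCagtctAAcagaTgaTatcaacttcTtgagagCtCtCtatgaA
Krt6b: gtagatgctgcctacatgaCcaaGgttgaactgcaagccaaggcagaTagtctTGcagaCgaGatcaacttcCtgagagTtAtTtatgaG

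Sequence shared with other genes limits how well reads can be assigned to single members. Of the 31-base words in the annotated transcripts, 61.99% of those of *Krt6a* and 56.96% of those of *Krt6b* also occurred in another gene, mostly in each other (45.92% and 50.29%). *Krt16* shared 51.86% of its words, of which the pseudogene *Gm11597* held the largest part (32.18% of all words), followed by *Krt14* (19.74%). The share was 28.24% for *Krt14*, 26.85% for *Sfn*, 15.84% for *Krt17*, 15.78% for *Krt5* and 3.74% for *Krt15*, and *Trp63* shared none. The split between *Krt6a* and *Krt6b* is therefore uncertain, and their sum is given as well. The pseudogene *Gm11597* stayed at 0.48 or below on the log2 scale in every sample. An antisense gene, *Gm49428*, overlaps *Krt6a* and was at 1.19 and 0.71 in the Control samples 1 and 4, with 0.06 to 0.29 in the SIGLEC12 samples.

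Control replicate 1 differed from the other 4 samples beyond the keratins. It had the fewest genes at a TPM of at least 1 (7947), and protein-coding genes took the smallest share of its TPM (5.70%). Control replicate 4 was next lowest on both (9532 and 6.73%), below the SIGLEC12 samples (9837 to 10090 and 8.75% to 9.72%). Both measures thus also split by group, and group differences on the deposited scale include this difference in composition. Because Control replicate 1 stands apart, group differences of the members and medians of lists are given with and without it. Values are the deposited log2(TPM + 1), in which TPM is an abundance relative to all RNA of the sample and corrected for transcript length, so that levels can be compared between genes. Read depth is unknown, errors are SD between mice unless an SE is named, and p-values measure the spread between these 5 mice only.

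The squamous keratins were detected in every tumor, and 1 Control mouse held most of the TPM summed over the 9 genes and 5 samples. Control replicate 1 was the highest of the 5 samples for all 9 members, a pattern that 5.58% of all tested genes had. It was at least 2-fold above each other sample on the log2(TPM + 1) scale for 7 of the 9, against 0.667% of all tested genes, and these shares are given beside the counts only, since the members were selected on these values. The 2 members outside that threshold were *Trp63*, 0.95 above the next sample, and *Krt15*, 0.64 above it, and the nearest inside it was *Sfn* at 1.70. Over the 9 members the gap to the next sample had a median of 2.39 and a range from 0.64 to 5.87.

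**Figure D1:**
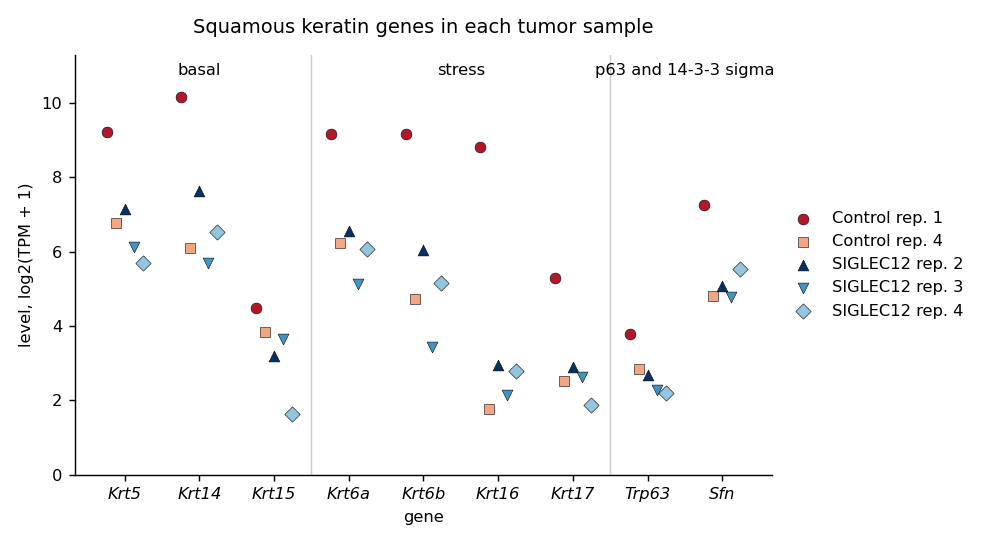
Levels of the 9 genes as log2(TPM + 1), 1 point per tumor sample, with genes grouped by role. Control replicate 1 is the top point for every gene, by 5.87 for Krt16 and by 0.64 for Krt15, while Control replicate 4 lies among the SIGLEC12 samples for 6 of the 9.

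Among the basal keratins, *Krt5*, the type II keratin of the basal layer, measured 9.22 in Control replicate 1 and 6.77 in Control replicate 4, and 7.16, 6.14 and 5.69 in SIGLEC12 replicates 2, 3 and 4. Its type I partner *Krt14* measured 10.16 and 6.10 in the Control samples and 7.64, 5.69 and 6.55 in the SIGLEC12 samples. For both, Control replicate 4 lay inside the range of the SIGLEC12 samples, and only Control replicate 1 stood above it. *Krt15*, a basal keratin that also marks hair follicle stem cells, measured 4.49 and 3.85 in the Control samples and 3.19, 3.65 and 1.63 in the SIGLEC12 samples. Here both Control samples were above all 3 SIGLEC12 samples, although Control replicate 4 exceeded SIGLEC12 replicate 3 by little, and the low value was that of SIGLEC12 replicate 4.

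Among the stress keratins, *Krt6a* measured 9.17 and 6.24 in Control replicates 1 and 4 and 6.56, 5.13 and 6.08 in SIGLEC12 replicates 2, 3 and 4. Its near copy *Krt6b* measured 9.17 and 4.72 in the Control samples and 6.04, 3.44 and 5.15 in the SIGLEC12 samples. Added together, which avoids the uncertain split, the pair reached 1151 TPM in Control replicate 1 and 43.9 to 158 TPM in the other 4. The order of the samples was the same for the single genes except that Control replicate 4 and SIGLEC12 replicate 4 changed places.

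*Krt16*, the type I stress keratin, showed the widest gap of all members. It measured 8.82 in Control replicate 1, 1.76 in Control replicate 4, and 2.95, 2.14 and 2.80 in the SIGLEC12 samples. In TPM this was 452 against 2.38 to 6.73, or 67.1 times the next highest sample, and Control replicate 4 was the lowest of all 5. *Krt17*, which pairs with type II keratins in wounded and appendage epithelium, was at 5.29 and 2.52 in the Control samples and 2.90, 2.63 and 1.87 in the SIGLEC12 samples. Control replicate 4 lay inside the SIGLEC12 range for *Krt17*, as for *Krt6a* and *Krt6b*.

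*Trp63* encodes p63, the transcription factor that sets up and maintains the squamous basal layer. It measured 3.80 and 2.85 in the Control samples and 2.67, 2.29 and 2.20 in the SIGLEC12 samples, so the groups did not overlap, although Control replicate 4 and SIGLEC12 replicate 2 lay close together. *Sfn* encodes stratifin, an adaptor protein of squamous epithelium that binds phosphorylated partners, keratins among them. It measured 7.25 and 4.81 in the Control samples and 5.08, 4.78 and 5.55 in the SIGLEC12 samples, and Control replicate 4 lay inside the SIGLEC12 range. Groups without overlap, Control above, were thus found for *Krt15* and *Trp63*, 2 of the 9 members, against 1.67% of all tested genes. That share too is given beside the count only.

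The order of the members changed between samples. Per transcript length, Control replicate 1 ran from *Krt14* (1144 TPM) through *Krt5* (595), *Krt6b* (577), *Krt6a* (574), *Krt16* (452), *Sfn* (151), *Krt17* (38.1) and *Krt15* (21.4) to *Trp63* (12.9). In the other 4 samples *Krt5*, *Krt14* and *Krt6a* led in each, in a varying order, between 34.1 and 199 TPM. *Krt5* and *Krt14* changed places within each group, so their order did not hold beyond the spread between mice, and the same was true of *Krt15*, *Krt16*, *Krt17* and *Trp63* at the low end of these 4 samples. *Krt16* was the fifth most abundant member in Control replicate 1 but the lowest of all 9 in Control replicate 4 and SIGLEC12 replicate 3.

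Among all protein-coding genes *Krt14* ranked 3, *Krt5* 6, *Krt6b* 7, *Krt6a* 8, *Krt16* 11 and *Sfn* 30 in Control replicate 1. In the other 4 samples *Krt14* ranked between 38 and 241 and *Krt5* between 50 and 270, so these remained abundant mRNAs in every tumor. *Krt6b* ranked between 192 and 1392 there, and *Krt16* between 2258 and 4899. The 9 members together took 6.26% of all protein-coding TPM in Control replicate 1 and 0.245% to 0.632% in the others.

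The balance within the keratins also differed in Control replicate 1. Stress keratins summed to 1641 TPM and basal keratins to 1761 TPM in that sample, a ratio of 0.93, whereas the ratio was 0.40 to 0.76 in the other 4. *Krt16* relative to *Krt14* was 0.395 in Control replicate 1 and 0.0339 to 0.0670 elsewhere, and *Krt16* made up 13.3% of the TPM of the 7 keratins against 0.803% to 2.34%. *Krt6b* relative to *Krt6a* was 1.004 against 0.290 to 0.692, with the uncertainty of that split. Type I members (*Krt14*, *Krt15*, *Krt16*, *Krt17*) summed to 0.95 times the type II members (*Krt5*, *Krt6a*, *Krt6b*) in Control replicate 1 and to 0.42 to 0.73 times in the others. *Krt15* relative to *Krt14* was lowest in Control replicate 1, at 0.0187 against 0.0227 to 0.228, and *Krt14* relative to *Krt5* was highest there, at 1.92 against 0.627 to 1.82.

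**Figure D2:**
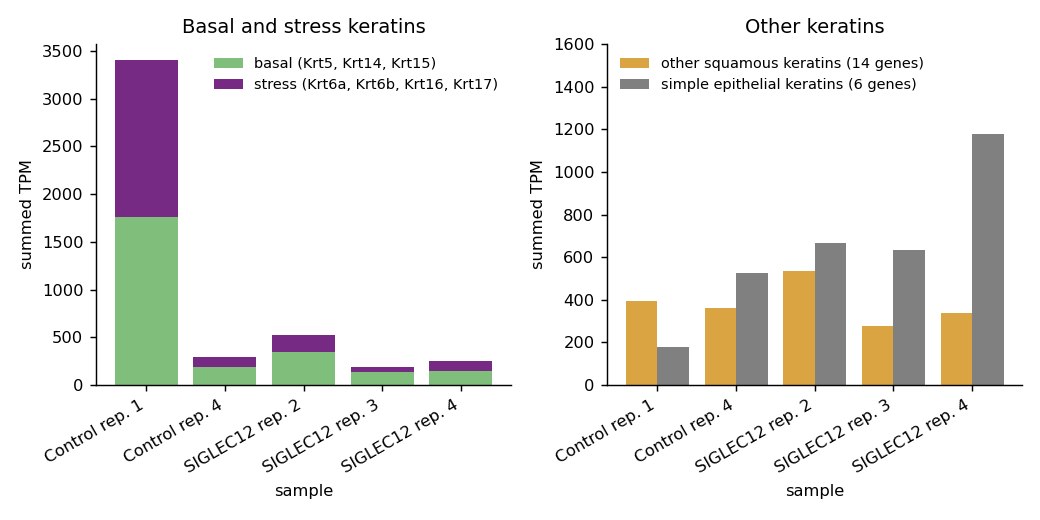
Summed TPM per tumor sample, with basal and stress keratins stacked at left and other squamous and simple epithelial keratins side by side at right, on axes of different height. The basal and stress keratins reach 3401 TPM in Control replicate 1 and 184 to 520 TPM in the others, while the simple keratins are lowest in Control replicate 1 (179 TPM, against 528 to 1176).

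Within the 3 SIGLEC12 samples the members also varied. SIGLEC12 replicate 2 was the highest of the 3 for 7 members, the exceptions being *Krt15*, highest in replicate 3, and *Sfn*, highest in replicate 4. The highest TPM was 6.55 times the lowest for *Krt6b*, 5.52 times for *Krt15* and 3.92 times for *Krt14*. *Trp63* and *Sfn* varied least, at 1.50 and 1.73 times.

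Compared by group, all 9 members had a lower mean in SIGLEC12 than in Control. The size of the difference rested largely on Control replicate 1. Exceptions were *Krt15*, still at -1.02 without that sample, and *Trp63*, at -0.47 without it. The log2 difference, SIGLEC12 minus Control with its limma SE (n = 2 and 3), was -1.66 (SE 0.76) for *Krt5*, -1.51 (SE 1.16) for *Krt14* and -1.34 (SE 0.59) for *Krt15*. It was -1.78 (SE 0.86) for *Krt6a*, -2.07 (SE 1.33) for *Krt6b*, -2.66 (SE 1.82) for *Krt16* and -1.44 (SE 0.77) for *Krt17*. For *Trp63* it was -0.94 (SE 0.32) and for *Sfn* -0.89 (SE 0.68). For members other than *Krt15* the Control samples lay farther apart than the SIGLEC12 samples, which widens the errors. *Krt16* had a Control level of 5.29 ± 5.00 (SD, n = 2) and a SIGLEC12 level of 2.63 ± 0.43 (SD, n = 3). For *Krt15* the SD was 0.45 in Control (n = 2) and 1.06 in SIGLEC12 (n = 3). In bulk tissue, fewer squamous cells and less keratin RNA per cell cannot be told apart.

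By size alone, 7 of the 9 members were at least 2-fold lower in SIGLEC12, as were 0.754% of all tested genes. The share is given beside the count only, since the members were selected on these values. None of the 9 passed the adjusted threshold (limma, Benjamini-Hochberg adjusted p under 0.05 and at least 2-fold), which 0% of all tested genes passed in the higher and 0% in the lower direction, the smallest adjusted p being 0.0974. At the unadjusted threshold (2-fold or more with p no higher than 0.05) again 0 of the 9 were called, against 3.97% of all tested genes that were higher and 0.445% that were lower in SIGLEC12. An unadjusted p under 0.05 at any fold was found for 3543 of the 10338 tested genes. The median difference over the 9 members was -1.51, and over all tested genes it was 0.38 (0.26 without Control replicate 1). With each sample rescaled to the same protein-coding total, the median over all tested genes was 0.01 and that over the members -2.06, and all 9 members were still lower in SIGLEC12.

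Without Control replicate 1 the median difference over the 9 members was -0.06, and 4 of them were higher in SIGLEC12. These were *Krt14* at 0.52, *Krt6b* at 0.16, *Krt16* at 0.87 and *Sfn* at 0.32. *Krt5* at -0.44, *Krt6a* at -0.31, *Krt17* at -0.06, *Krt15* at -1.02 and *Trp63* at -0.47 were lower. With the protein-coding rescaling as well, the median was -0.41 over the members and -0.05 over all tested genes. *Krt6b* (-0.26) and *Sfn* (-0.10) turned lower, and *Krt14* (0.09) and *Krt16* (0.54) were higher. *Krt5* (-0.87), *Krt6a* (-0.74), *Krt17* (-0.41), *Krt15* (-1.40) and *Trp63* (-0.83) stayed lower. Without Control replicate 1, only Control replicate 4 stands for its group. On the deposited scale it lay inside the SIGLEC12 range for 6 members, above it for *Krt15* and *Trp63* and below it for *Krt16*. Without Control replicate 4, when the comparison is Control replicate 1 alone against the SIGLEC12 samples, the median was -2.89.

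**Figure D3:**
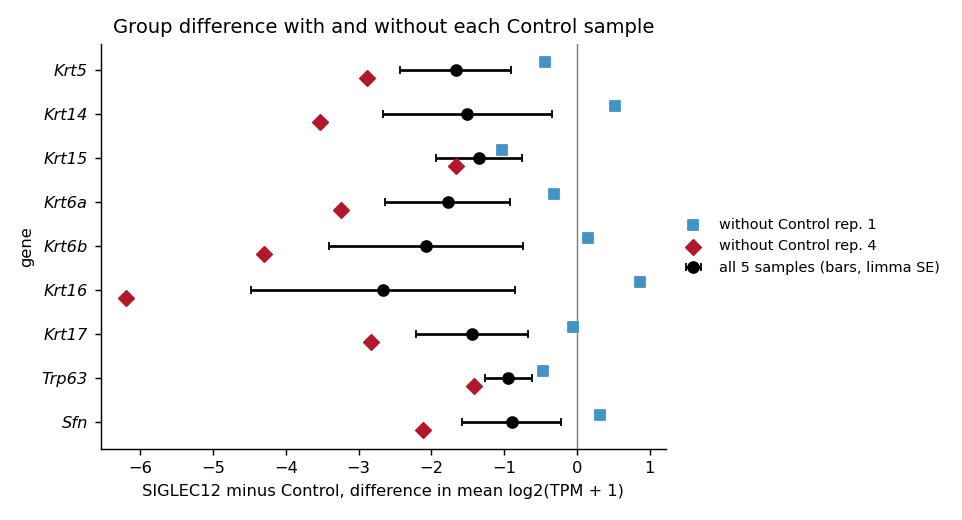
Difference in mean log2(TPM + 1), SIGLEC12 minus Control, for each gene with all 5 samples (circles, bars are limma SE), without Control replicate 1 (squares) and without Control replicate 4 (diamonds). All circles lie below 0, and without Control replicate 1 the squares of Krt14, Krt6b, Krt16 and Sfn lie above 0.

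The set was then placed beside lists of other epithelial genes. These lists were also chosen with earlier results of these data known, so their counts are description only. The 3 columnar genes of highest mean TPM, all of intestinal epithelium, were detected in every sample and were lowest in Control replicate 1. *Muc2*, the main goblet cell mucin, was at 6.74 there and 7.32 to 8.47 in the other 4. *Lgals4*, a galectin of the gut epithelium, was at 6.16 against 7.84 to 8.24, and *Tff3*, a goblet cell peptide, at 5.56 against 6.40 to 7.71. Squamous genes outside the set were present in all 5 samples too, so squamous RNA was not confined to Control replicate 1. *Krt13*, a keratin of mucosal squamous epithelium, was at 7.99 in Control replicate 1 and 7.05 to 8.17 in the others. *Krtdap*, a keratinocyte differentiation protein, was at 6.53 against 6.15 to 6.86. Which cells the squamous RNA came from was not tested.

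The other squamous keratins did not follow the members. Of 14 on the list, 6 were tested and none was at least 2-fold higher in Control replicate 1 than in each other sample. Their summed TPM was 394 in Control replicate 1 and 278 to 535 elsewhere. *Krt4*, the mucosal partner of *Krt13*, was lowest in Control replicate 1, at 4.30 against 5.85 to 7.45, and *Krt10*, a keratin of the upper epidermis, was at 6.51 against 5.52 to 6.13.

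Of the 4 other squamous lists, the desmosome genes had the highest median in Control replicate 1 relative to the other samples. Desmosomes anchor keratin filaments at contacts between cells. Of the 6 listed genes, 5 were at least 2-fold higher in Control replicate 1 than in each other sample, against 0.667% of all tested genes. *Pkp1*, a plaque protein, was at 5.92 against 3.33 to 4.05. The cadherins *Dsg1b* (5.31 against 1.53 to 2.45), *Dsg1a* (4.62 against 0.67 to 2.24), *Dsg3* (4.88 against 2.65 to 3.36) and *Dsc3* (3.97 against 1.74 to 2.42) were the other 4. *Dsc1*, the cadherin of the outer epidermal layers, was at 1.57 against 1.34 to 2.01.

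Genes linked to p63 in the basal layer were split. Of 16 tested, 4 were at least 2-fold above and 4 at least 2-fold below each other sample in Control replicate 1. Of all tested genes 0.667% lay above and 3.16% below in this way. *Perp*, a p63 target in desmosomes, was at 7.67 against 5.69 to 6.36. *Itga6*, an integrin chain of hemidesmosomes, was at 4.49 against 4.91 to 5.98. Genes of the cornified envelope, the protein shell of terminally differentiated squamous cells, were mixed as well, with 5 of 19 tested above and 2 below. *Sprr1a*, an envelope precursor, was at 8.53 against 5.71 to 7.76, which is short of 2-fold. *Ly6d*, a surface protein of keratinocytes and 1 of the 5, was at 7.21 against 5.37 to 6.03. The 2 below were *Flg* (2.31 against 4.76 to 6.76) and *Sprr2a1* (2.81 against 4.11 to 4.52), named after their values were seen.

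**Figure D4:**
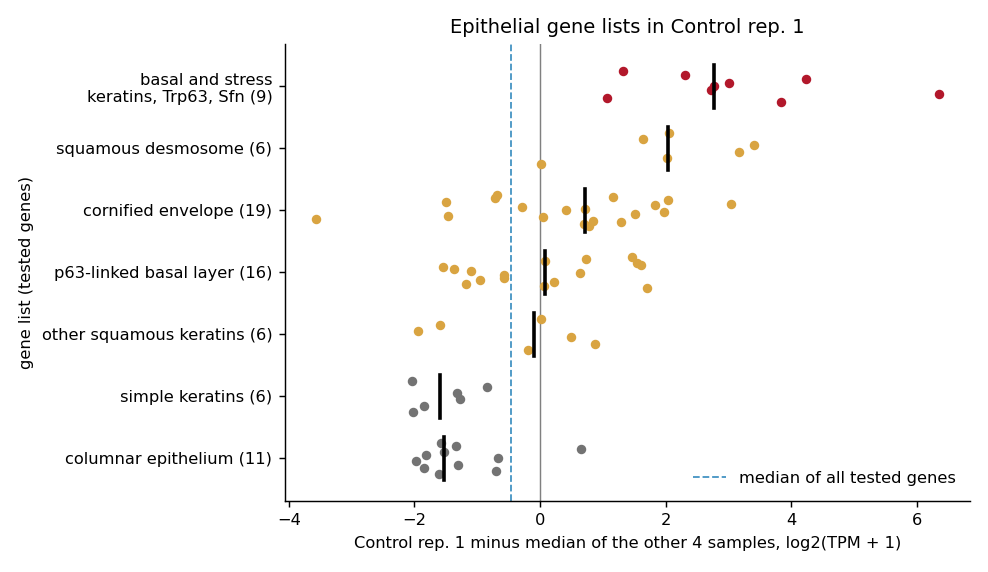
Control replicate 1 minus the median of the other 4 samples in log2(TPM + 1), 1 point per tested gene, with a bar at the median of each list and a dashed line at the median of all tested genes. The list medians are 2.76 for the 9 members, 2.03 for squamous desmosome genes and 0.72 for cornified envelope genes, and -1.59 and -1.54 for simple keratins and columnar genes.

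Simple keratins and columnar genes were low in Control replicate 1, as most genes were: 70.2% of all tested genes were lowest in that sample. All 6 simple keratins were lowest there, and 3 of them were at least 2-fold below each other sample, against the 3.16% given above: *Krt8* was at 5.79 against 7.54 to 8.65, *Krt18* at 3.45 against 4.90 to 6.35 and *Krt19* at 6.52 against 8.05 to 9.23. *Krt20* was at 3.40 against 4.21 to 5.83, *Krt7* at 3.85 against 4.18 to 5.20 and *Krt23* at 0.75 against 1.65 to 2.84. The 7 squamous keratins of the set summed to 19.0 times the simple keratins there and to 0.217 to 0.782 times in the other 4. Of 11 tested columnar genes, 9 were lowest in Control replicate 1, and 6 were at least 2-fold below each other sample.

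By group, of the 47 tested genes on the 4 other squamous lists 1 was higher in SIGLEC12 at the unadjusted threshold and 3 were lower. Of all tested genes 3.97% were higher and 0.445% were lower at that threshold. The higher squamous gene was *Krt79*, and the lower ones were *Col17a1*, *Sprr2d* and *Tgm1*, named after their values were seen. Of the 17 tested simple keratin and columnar genes 7 were higher and 1 was lower at that threshold, against the same shares of all tested genes. None of either set passed the adjusted threshold. Groups without overlap, SIGLEC12 above, were found for 11 of these 17, against 54.1% of all tested genes. With rescaling to the protein-coding total the 7 higher calls became 0, as they did without Control replicate 1, and they became 13 without Control replicate 4. The 3 lower squamous calls became 0 without Control replicate 1, 15 without Control replicate 4, 1 without SIGLEC12 replicate 3 and 0 without SIGLEC12 replicate 4. The median difference over the 47 squamous genes was -0.27, and 0.01 without Control replicate 1. Over the 17 genes it was 0.95, and 0.43 without Control replicate 1. Among single lists the median of the desmosome genes changed sign, from -1.01 to 0.19 without that sample, that of the simple keratins went from 1.12 to 0.59 and that of the columnar genes from 0.95 to 0.37.

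Markers of other sources were low or did not follow the members. Of 16 hair follicle and hair shaft genes, 15 were in the table and none passed the filter. They summed to 0.375 and 0.131 TPM in Control replicates 1 and 4, and to 2.73 to 6.33 TPM in the SIGLEC12 samples. *Krt81*, *Krt34* and *Krt31*, keratins of the hair shaft, were at 0.02 or below in both Control samples and at 0.20 to 1.27 in the SIGLEC12 samples. The 4 urothelial genes (*Upk1a*, *Upk1b*, *Upk2* and *Upk3a*) summed to 1.96 TPM in Control replicate 1 and to 0.571 to 1.02 TPM elsewhere, and none passed the filter.

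Stromal and immune markers differed between samples too. Smooth muscle genes summed to 45.3 TPM in Control replicate 1 and to 45.7 to 112 TPM in the others, and fibroblast genes to 8.71 against 10.5 to 57.9 TPM. *Dcn*, a matrix proteoglycan, was at 1.60 against 2.45 to 4.57, and the collagen genes *Col3a1* (1.79 against 1.87 to 4.13), *Col1a1* (1.62 against 1.28 to 3.26) and *Col1a2* (1.44 against 1.06 to 3.14) were highest in SIGLEC12 replicate 2. The fibroblast receptor gene *Pdgfra* (0.17 against 0.38 to 1.47) and *Lum* (0.37 against 0.25 to 0.52), another matrix proteoglycan, were low in all samples. Genes of the contractile apparatus of smooth muscle, *Tagln*, *Acta2*, *Actg2*, *Cnn1*, *Des* and *Myh11*, lay between 2.58 and 3.41 in Control replicate 1, between 1.78 and 3.76 in Control replicate 4 and SIGLEC12 replicates 3 and 4, and between 3.33 and 4.74 in SIGLEC12 replicate 2. Myeloid and neutrophil genes summed to 22.7 against 10.3 to 46.0 TPM, with *S100a8*, a neutrophil calcium-binding protein, at 3.46 against 2.18 to 4.24, its partner *S100a9* at 2.75 against 1.99 to 3.50, and the lysozyme gene *Lyz2* at 2.38 against 1.39 to 3.86. SIGLEC12 replicate 2, which had the highest members among the SIGLEC12 samples for 7 of 9, also had the highest smooth muscle and fibroblast sums of all samples. The part of any of these in the keratin levels was not tested.

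The genes with a profile most like the members were then named. Each profile was centred on its own mean over the 5 samples, and the root-mean-square difference from the mean profile of the members was taken for 9213 other tested protein-coding genes, whose median was 1.48. Of the 10 smallest, 9 are given here. They include *Gjb2* (0.27), a gap junction protein, *Dsg1b* (0.32), *Crabp2* (0.33), a retinoic acid carrier, and *Olfm4* (0.37), a secreted protein of intestinal crypt cells. The others of the 9 were *Dsg1a* (0.42), *Pkp1* (0.43), the small heat shock gene *Hspb1* (0.48), *Lypd3* (0.49), a surface protein of keratinocytes, and the inducible heat shock gene *Hspa1b* (0.50). For these 9 the profile is largely the height of Control replicate 1: *Gjb2* was at 6.12 there and at 2.31 to 2.98 in the others. Likeness over 5 samples, 1 of which stands apart, says little about the other 4.

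**Figure D5:**
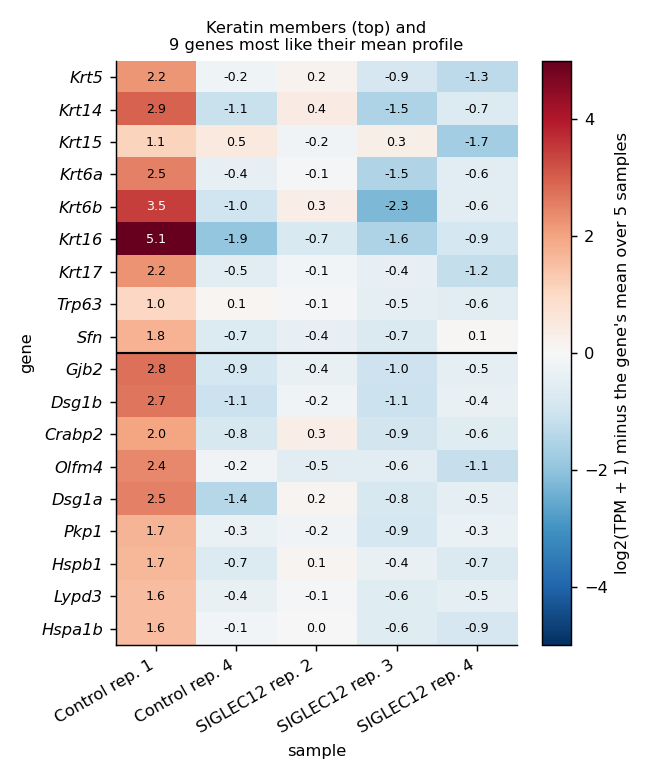
Level of each gene in each tumor sample as log2(TPM + 1) minus the mean of that gene over the 5 samples, with the 9 members above the line and 9 of the 10 genes nearest to their mean profile below. The mean profile of the members is 2.49 in Control replicate 1, -0.59 in Control replicate 4, and -0.08, -1.003 and -0.82 in SIGLEC12 replicates 2, 3 and 4.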

How the data were processed

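The authors deposited log2(TPM + 1) for 52143 genes in 5 samples, and 0 value columns were left without a sample. The submitters' processing notes name kallisto 0.45.0 and GRCm38, the study's methods also kallisto, with a human reference. The labels name a stranded total RNA kit and the methods an mRNA kit. How transcripts were combined into genes is not given in the sources used here. TPM keeps no depth, so no counting interval could be given.

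Members, gene lists and tests were chosen with earlier results of these data known. TPM for sums and ratios was 2 to the power of the value, minus 1. Genes with TPM of at least 1 in at least 2 samples (10338, 9222 protein-coding) went into limma 3.58.1 under R 4.3.3 (lmFit, eBayes with trend, two-sided, no covariate) in 1 fit, with Benjamini-Hochberg adjustment over all genes. The fit was tested on simulated data. The pseudocount of 1 understates changes of low genes. The study's methods select genes by P of at most 0.05 and 2-fold without saying there whether P was adjusted, and name Benjamini-Hochberg correction in another passage, hence both thresholds. The text names all 9 members, the 3 genes of highest mean TPM in each list, all of a list of at most 6 genes, with exceptions stated, and the 10 genes nearest in profile, of which 1 gene of a list and 1 near in profile are not reported here. Coordinates, exons and biotypes are from GENCODE M21 on GRCm38, which held 98.45% of the gene identifiers. Shared sequence was counted as 31-base words of annotated transcripts found in another gene.

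Alternatives were no filter, a stricter one (TPM of 5 or more), a pseudocount of 0.1, rescaling to the protein-coding total, median-ratio size factors, quantile normalization, sample weights, summing repeated symbols, and leaving out each sample. Leaving out Control replicate 1 together with rescaling was added after seeing the data.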

Additional observations from a re-analysis of the deposited data

How the results depend on the processing

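All 9 members were lower in SIGLEC12 in each of the 72 differences from settings that used all 5 samples (-3.17 to -0.84). These are not separate checks, since all of these settings keep Control replicate 1. Removing the filter, the stricter filter and summing repeated symbols left every member difference as in the main fit. With 1 sample left out, 41 of 45 were lower, and the exceptions, all without Control replicate 1, were *Krt14* (0.52), *Krt6b* (0.16), *Krt16* (0.87) and *Sfn* (0.32). With rescaling added, *Krt14* (0.09) and *Krt16* (0.54) were still higher, and the median over the members was -0.41. With 1 sample left out, the ranges were -3.53 to 0.52 for *Krt14*, -4.30 to 0.16 for *Krt6b*, -6.19 to 0.87 for *Krt16* and -2.11 to 0.32 for *Sfn*, and the median over the members ran from -2.89 to -0.06. Where a lone Control sample is left, it is assumed to vary like the SIGLEC12 samples.

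Counts at the unadjusted threshold, 410 higher and 46 lower in SIGLEC12 over all tested genes, moved to 1087 higher with a pseudocount of 0.1 and to 19 lower with TPM of at least 5. Protein-coding rescaling gave 38 and 142, median-ratio size factors 46 and 139, and quantile normalization 46 and 132, so the higher share of calls fell from 89.9% to between 21.1% and 25.8%. With 1 sample left out the counts ran from 143 to 1366 higher and from 51 to 146 lower, and with Control replicate 1 left out and rescaling added they were 27 and 223. At the adjusted threshold they ran from 0 to 962 higher and from 0 to 97 lower, the highest without Control replicate 4.

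For the 4 other squamous lists, the 3 lower calls became 1 without a filter, 7 after rescaling, 6 with median-ratio factors, 7 with quantile normalization and 0 with sample weights, and the 1 higher call became 0 with TPM of at least 5. For simple keratin and columnar genes the 7 higher calls became 0, 1 and 0 under the 3 rescalings. With 1 sample left out, the unadjusted squamous calls ran from 1 to 10 higher (0 without Control replicate 1 and with rescaling) and from 0 to 15 lower and the simple keratin and columnar calls from 0 to 13 higher and from 0 to 2 lower, and the adjusted calls from 0 to 17 and from 0 to 9. At the unadjusted threshold, members called lower numbered 1 with a pseudocount of 0.1, where 53 of the 10338 tested genes were called lower. They numbered 3 after rescaling (142 over all tested genes), 3 with median-ratio factors (139) and 4 with quantile normalization (132). Without SIGLEC12 replicate 2 they numbered 2 (63 over all tested genes), and without SIGLEC12 replicate 3 the count was 1 (51). The members were selected on these values, so these counts are description only. Fits with a lone Control sample are not counted here for the members. The cause of these shifts was not tested. No paired analysis was possible because replicate 4 is the only number that both groups have. Depth is unknown, and 2 Control mice that differ this far limit every group difference given.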
